A study of Mus musculus with 2 samples.

Results

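Mir126a, Mir221 and Mir222 are microRNA genes known from the vessel wall, and all 3 had a row among the 1973 microRNA genes counted in embryonic mouse kidney (day 16.5). The rule names them by gene symbol and uses no threshold on a measured value, but it was written with earlier results of these data known. The kidneys came from healthy B6NCrl embryos, both sexes were pooled, and no treatment is given for either library. There was 1 group of 2 libraries, biological replicates 1 and 2 per the labels. Replicate 2 held kidneys of 41 embryos, and how many were pooled in replicate 1 is not stated in the sources used here. Both tissue samples carry 1 shared donor record, so the SDs and p-values below describe how far these libraries lay apart, which may be technical. Since there is no other condition, the data answer how abundant the 3 genes were, how they stood to each other, and how far the pools differed.

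A microRNA is cut from a hairpin precursor into a short strand that guides silencing complexes to messenger RNAs, mainly through its seed, bases 2 to 8. The microRNA miR-126 is made in endothelial cells from within Egfl7, a gene for a secreted endothelial protein. It is known to lower Spred1 and Pik3r2, inhibitors of the signalling that follows vascular endothelial growth factor, and mice without it have leaky vessels. The paired microRNAs miR-221 and miR-222 are known in endothelium, smooth muscle and blood progenitors, where they lower the stem cell factor receptor Kit and the cell cycle inhibitor Cdkn1b. The growing kidney forms its glomerular and peritubular capillaries while nephrons are being added.

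The mature strands show why Mir221 and Mir222 are read as a pair and Mir126a apart from them. All 3 genes were matched by symbol in the RefSeq microRNA table on GRCm38.p6, the assembly also called mm10. Sequences run 5′ to 3′, and capitals mark the seed.
miR-126a-3p: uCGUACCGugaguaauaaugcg
miR-221-3p: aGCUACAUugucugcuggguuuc
miR-221-5p: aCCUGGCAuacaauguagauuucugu
miR-222-3p: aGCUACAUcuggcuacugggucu
miR-1928: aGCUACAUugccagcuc
The seed of miR-221-3p and miR-222-3p was the same, and of the 1738 mature entries only miR-1928 also carried it. The seeds of miR-126a-3p and miR-221-5p occurred in no entry of another gene. For comparison, 32.0% of the mature entries shared their seed with another gene. The strands miR-126a-5p and miR-222-5p are named only.

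Beyond the seed the strands of the pair diverged, which is shown with capitals for bases that are equal at the same position.
miR-221-3p: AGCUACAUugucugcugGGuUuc
miR-222-3p: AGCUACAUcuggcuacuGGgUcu
The first 8 bases were equal, and 11 of 23 positions were equal without gaps. With gaps, 19 of 24 aligned columns of the mature strands and 60 of 96 of the hairpins were identical. No stretch of 18 nt was shared between the hairpins of Mir221 and Mir222 or with any other microRNA gene. Each printed strand of the pair occurred in the transcripts of its own gene alone among the 141767 transcripts of GENCODE M21. A read of either gene can therefore be told apart within that set, and the genome beyond the transcripts was not searched here.

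The hairpins are the stretches over which the reads of each gene were counted. Capitals mark the mature strands listed in RefSeq.
Mir126a: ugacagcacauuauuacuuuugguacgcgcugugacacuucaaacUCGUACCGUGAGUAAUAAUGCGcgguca
Mir221: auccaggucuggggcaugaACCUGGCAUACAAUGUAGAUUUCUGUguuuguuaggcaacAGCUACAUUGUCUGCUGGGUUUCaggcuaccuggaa
Mir222: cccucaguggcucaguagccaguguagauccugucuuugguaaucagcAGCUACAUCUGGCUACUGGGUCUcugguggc
Each gene row sums the reads of its whole hairpin, so the levels below join both arms and cannot be split between 5p and 3p strands. On mm10 with GENCODE M21, Mir126a (ENSMUSG00000065540) lies on the plus strand of chromosome 2 from 26591357 to 26591429. It sits in an intron of 8 Egfl7 transcripts, intron 7 in those with 10 exons, and in an exon of 1 transcript that keeps the intron. It also lies in an intron of 1 transcript of Gm20532, a gene that overlaps Egfl7. Mir221 (ENSMUSG00000065422) lies on the minus strand of chromosome X from 19146294 to 19146388, and Mir222 (ENSMUSG00000065471) on the same strand from 19146893 to 19146971. Mir222 is thus upstream of Mir221, with 504 bases between them. No other annotated gene overlaps either, and the next gene upstream, the noncoding Gm14636, starts 10009 bases beyond Mir222.

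Mir126a was among the most abundant microRNA genes of the kidney by the reads assigned to a gene. Mir221 and Mir222 were detected at levels more than 100 times lower. Levels are counts per 1000000 sense reads in microRNA gene rows (CPM), with SD over 2 libraries. Libraries held 5317669 and 7128703 such reads. Intervals of a single library are exact Clopper-Pearson 95% intervals. They and the limits for a count of 0 hold counting error alone, because copies made by PCR were not marked by molecular identifiers.

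Mir126a had 279877 reads in replicate 1, or 52632 CPM (interval 52442 to 52822), and 367512 reads in replicate 2, or 51554 CPM (51392 to 51716). The libraries lay close together, at 5.26% and 5.16% of the reads, and the mean was 52093 ± 762 CPM. It ranked 6 in replicate 1 and 5 in replicate 2. Reads mapping to several places, 28.0% and 25.3% of all reads, were assigned to no gene, so the ranks hold among the reads counted. In a bulk tissue a level joins the number of cells of a type and the RNA per cell, which cannot be told apart.

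Mir221 had 1300 and 2061 reads, or 244 CPM (231 to 258) in replicate 1 and 289 CPM (277 to 302) in replicate 2. Replicate 2 was the higher one, and the mean was 267 ± 31.6 CPM. Mir222 had 737 and 1101 reads, or 139 CPM (129 to 149) and 154 CPM (145 to 164), with replicate 2 again higher and a mean of 147 ± 11.2 CPM. Their mean levels ranked 129 and 156 of all rows. Of the 387 genes at 1 CPM or more in both libraries, 66.7% lay below Mir221, 59.7% below Mir222 and 98.4% below Mir126a. The median of these genes was 64.2 CPM, so the pair stood in the upper part of the detected range. Together the pair held 383 CPM and 444 CPM, or 0.0413% ± 0.00428 of the reads. The gene of miR-1928, which carries the same seed, had 0 reads in both libraries. Taking 3 reads as the limit of a count of 0, this allows up to 0.564 CPM and 0.421 CPM of reads that map to it alone. The gene of miR-1928 shares 18 nt with Mir1957a and Gm27458, so reads of it that map to several places would not be counted.

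**Figure D1:**
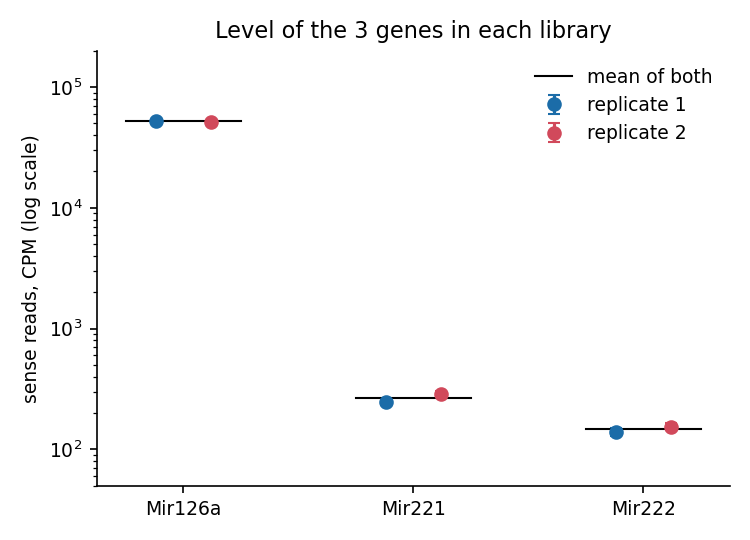
Level of Mir126a, Mir221 and Mir222 in each library, in CPM of sense reads on a log axis. Points are libraries, bars are exact 95% counting intervals, mostly smaller than the points, and lines are means. Mir126a stands at 52632 and 51554 CPM, and Mir221 stands above Mir222 in each.

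The order of the levels was the same in both libraries, and each step exceeded the replicate spread. Over the 181 genes at a mean of 100 CPM or more, the pooled replicate SD was 0.22 on log2(CPM + 1), so that means of 2 libraries had to differ by 0.43 log2, or 1.34-fold, to exceed 1.96 times this SD. This SD compares a gene with itself over the libraries and is a root mean square, so genes that lay far apart weigh most. It does not cover differences between genes in how readily their strands enter a library, which were not tested. An exact sign-flip test over 2 libraries cannot go below p = 0.5, so no p-value is given for folds between genes. Each read spans a mature strand rather than a fragment of a long RNA, so counts were not divided by length. The folds per base of the annotated gene are given beside the main ones.

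Mir221 exceeded Mir222 by 1.76-fold (interval 1.61 to 1.93) in replicate 1 and by 1.87-fold (1.74 to 2.02) in replicate 2. The intervals overlapped, and the mean log2 ratio was 0.86 ± 0.06. Per base of the hairpins, which are 95 and 79 nt long, the log2 ratio was 0.60, still above 0.43. Although neighbours on 1 strand, the genes were therefore not counted at equal levels.

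Mir126a exceeded Mir221 by 215-fold (204 to 228) in replicate 1 and by 178-fold (171 to 186) in replicate 2. It exceeded Mir222 by 380-fold (353 to 409) and 334-fold (315 to 354). Against the pair summed, the fold was 137 (132 to 144) and 116 (112 to 120), a mean log2 ratio of 6.98 ± 0.17, or 7.26 per base. These folds are taken within a library and do not depend on how the libraries are scaled. Replicate 1 had the larger fold each time, and the intervals of the libraries did not overlap for Mir221 or for the pair summed, though they did for Mir222. The mean log2 ratio was 7.61 ± 0.19 to Mir221 and 8.48 ± 0.13 to Mir222.

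**Figure D2:**
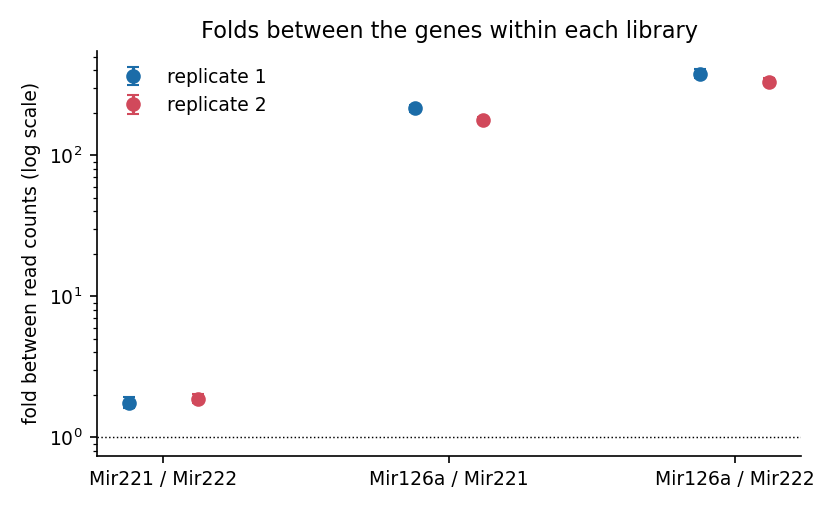
Folds between read counts of the genes within each library, on a log axis, with exact 95% counting intervals as bars. The dotted line marks equal counts. Mir221 over Mir222 is 1.76 and 1.87, while Mir126a over either of them lies between 178 and 380.

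Genes at like levels were listed by the root mean square difference in log2(CPM + 1) over the 2 libraries. This describes abundance alone, since 2 libraries carry no pattern. Nearest to Mir126a was Mirlet7i (difference 0.04), at 54343 and 50261 CPM, followed by Mirlet7g (0.10) and Mir10b (0.24). Both let-7 genes, of the family that accumulates as tissues differentiate, share 18 nt with each other, so their counts are uncertain. Nearest to Mir221 were Mir433 (0.06) at 257 and 282 CPM, Mir340 (0.08) and Mir206 (0.09), the last known from striated muscle. Nearest to Mir222 were Mir148b (0.05) at 145 and 155 CPM, Mir598 (0.07) and Mir24-2 (0.07), which shares 18 nt with Mir24-1.

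Neighbours in this order did not differ beyond their spread. The gene just above Mir126a, Mirlet7i, stood 1.00 times as high, and the one just below, Mir322, stood 1.27-fold lower, under 1.34-fold. In all, 5 genes lay within the spread of Mir126a, 24 within that of Mir221 and 34 within that of Mir222. The ranks of the pair are thus less certain than that of Mir126a.

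**Figure D3:**
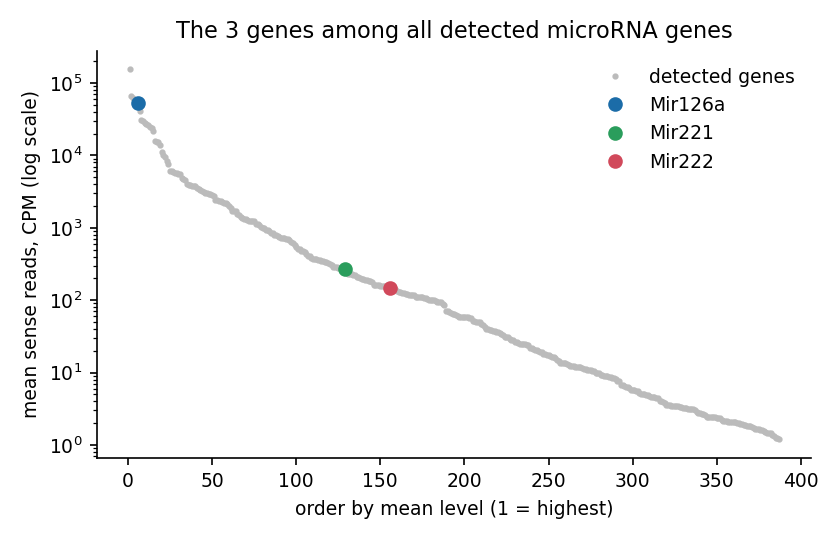
Mean level of the 387 genes detected in both libraries, in CPM on a log axis, by their order from the highest. Grey points are single genes, and coloured points mark Mir126a at 6, Mir221 at 129 and Mir222 at 156.

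The opposite strand was then examined, because another microRNA gene, Mir126b, lies there. Mir126b spans 26591363 to 26591420 of chromosome 2 on the minus strand, so all 58 of its bases lie within Mir126a. It has no row in the tables used here. Any reads of it would fall among the opposite-strand reads of the Mir126a row. Its strands are shown for that reason, with capitals marking the mature parts of the hairpin.
Mir126b: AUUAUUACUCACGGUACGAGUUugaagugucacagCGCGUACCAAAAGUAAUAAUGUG
Its strand miR-126b-5p overlaps miR-126a-3p by 19 bases on the other strand. The seed of miR-126b-3p, GCGUACC, is not the same as that of miR-126a-3p, CGUACCG, but holds most of it, shifted by a base.

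Few reads fell there. The Mir126a row had 10 opposite-strand reads in replicate 1 and 27 in replicate 2, or 1.88 and 3.79 per 1000000 sense reads. This was 0.00357% (interval 0.00171 to 0.00657) and 0.00735% (0.00484 to 0.0107) of its reads on either strand. Over all rows, opposite-strand reads made up 2.14% and 2.24%. Of the 387 detected genes 42 had an opposite-strand read, and 32 had a larger share than Mir126a. Mir221 and Mir222 had 0 opposite-strand reads in both libraries. Taking 3 reads as the limit of a count of 0, this allows up to 0.231% and 0.146% for Mir221. For Mir222 it allows up to 0.407% and 0.272%. The upper ends of the exact intervals are higher, at 0.283% and 0.179% for Mir221 and 0.499% and 0.334% for Mir222.

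The libraries were next compared with each other. Mir126a was lower in replicate 2 by a small amount, while neither Mir221 nor Mir222 passed the test. Ratios used TMM scaling, which sets the bulk of genes equal, and the test was a two-sided exact binomial test with Benjamini-Hochberg adjustment over 455 genes with at least 10 reads. It takes in counting error only and compares these libraries. By this test 153 genes, 33.6% of those tested, had an adjusted p under 0.05, with 72 higher (15.8%) and 81 lower (17.8%) in replicate 2.

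For Mir126a the log2 ratio of replicate 2 to replicate 1 was -0.17 (interval -0.18 to -0.17), and its exact binomial p was too small for the number format of the software. For Mir221 the log2 ratio was 0.10 (-0.0020 to 0.20, exact binomial adjusted p = 0.131), and for Mir222 it was 0.01 (-0.12 to 0.15, exact binomial adjusted p = 0.936). So 1 of the 3 genes was called, next to 33.6% of all genes tested. Of the 181 genes at 100 CPM or more, 123 lay closer to 0 than Mir126a, 69 closer than Mir221 and 7 closer than Mir222. Most of them, 97.8%, lay within 1.5-fold, but the log2 ratios ran from -0.84 to 2.47. The pooled replicate SD above takes in these extremes.

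The size of these ratios depended on scaling. With library totals in place of TMM, which moved the ratio of all genes by 0.14 from a median of 0.02 to 0.16, Mir126a stood at -0.03 (exact binomial adjusted p = 1.35e-15), Mir222 at 0.16 (exact binomial adjusted p = 0.0545) and Mir221 at 0.24 (exact binomial adjusted p = 9.22e-06). Under that scaling 193 genes (42.4% of those tested) were called, 152 higher (33.4%) and 41 lower (9.01%). Higher genes were thus 78.8% of the called ones, against 47.1% with TMM. With a biological coefficient of variation (BCV) of 0.2 allowed between pools, an edgeR exact test gave an adjusted p of 1 for all 3 genes and called 3 of 455 genes (0.659%).

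**Figure D4:**
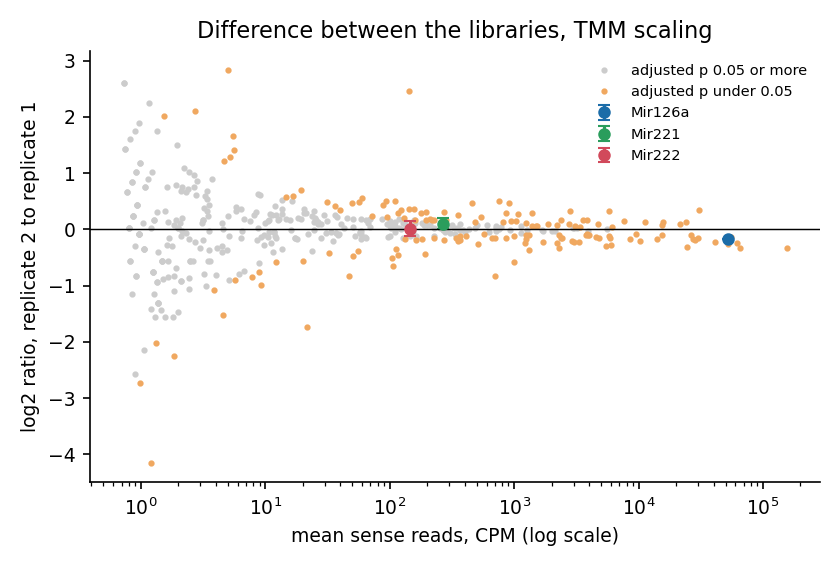
Log2 ratio of replicate 2 to replicate 1 with TMM scaling against mean level in CPM on a log axis, for the tested genes with reads in both libraries (1 gene without is left out). Orange points passed an adjusted p of 0.05 in the exact binomial test, and bars on the 3 genes are 95% counting intervals. Mir126a lies at -0.17, Mir221 at 0.10 and Mir222 at 0.01.

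Other microRNA genes linked to endothelium or to vessel growth were listed beside the 3 genes. The list holds 35 genes, of which 33 have a row, Mir126b and Mir24-1 being without one, and all 33 were detected. Mir126a was the third of them by mean level and held 11.6% and 11.9% of the list's reads. Mir221 came at place 23, and Mir222 at place 26. Above Mir126a stood the Hox-locus genes Mir10a, at 164308 and 145054 CPM, and Mir10b, at 63659 and 59165 CPM. Next below was Mir322, an X-linked gene whose human homologue is known from hypoxic endothelium, at 42017 and 39894 CPM.

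Then came Mir17 (27523 and 27115 CPM), of the cluster that also holds the angiogenesis-linked Mir92-1, and Mir130a (26184 and 27024 CPM), known to promote vessel growth. Mir23b stood at 21562 and 26221 CPM, Mir23a at 10090 and 12257 CPM, and Mir20a at 10470 and 10061 CPM. Mir23a and Mir23b share 18 nt with each other, as 14 of the 33 genes do with some microRNA gene, so their counts are uncertain. Mir221 and Mir222 share none. Mir126a shares sequence with Mir126b alone, through the opposite strand of the same locus.

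Between the libraries 22 of the 33 genes were called, 8 of them higher and 14 lower in replicate 2. The log2 ratio had a median of -0.02 over the list and 0.02 over all genes tested, of which 33.6% were called. With library totals the split turned to 17 higher and 8 lower (median 0.12), while the edgeR exact test that allows a BCV of 0.2 called 0 of the list, also at an unadjusted p under 0.05. Abundant genes pass a counting test at small ratios, and the list is led by abundant genes. Whether abundance accounts for the share of the list that was called was not tested. Among those at 100 CPM or more, the lowest ratios were Mir181a-1 (-0.37) and Mir10a (-0.32), and the highest were Mir27a (0.36) and Mir503 (0.28), each past the exact binomial test. Mir181a-1 and Mir27a share 18 nt with another microRNA gene. With library totals, all 33 ratios rise by 0.14.

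**Figure D5:**
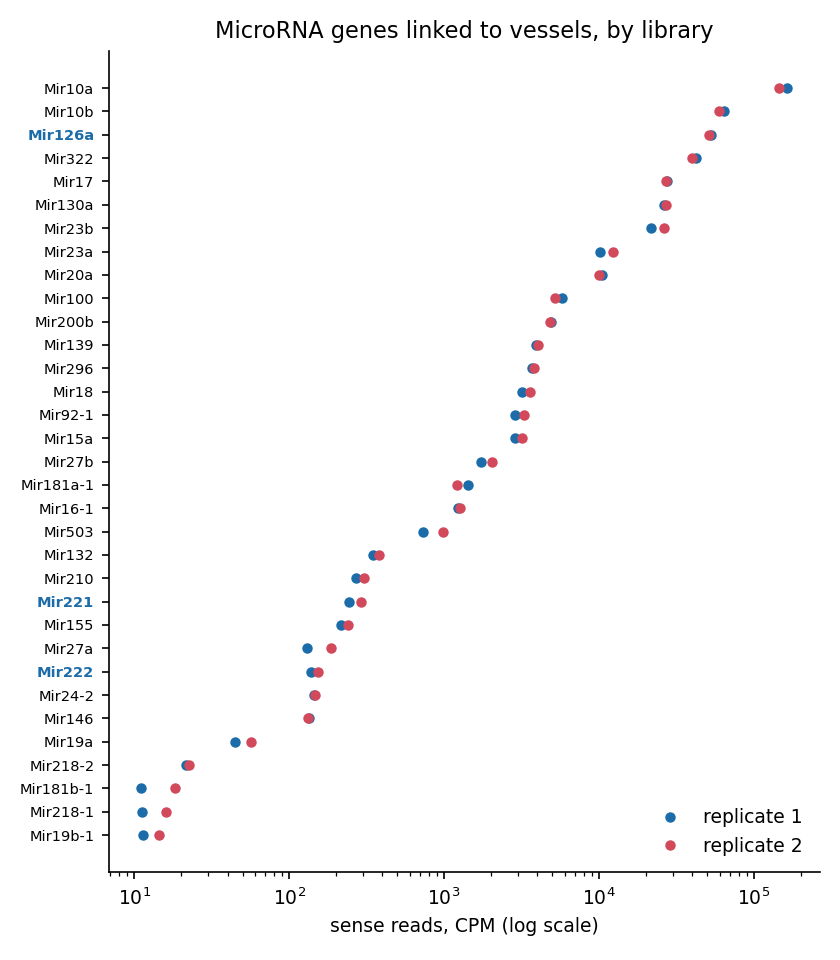
Level of 33 vessel-linked microRNA genes in each library, in CPM on a log axis, ordered by mean level. Each point is 1 library, and the 3 genes described here are in bold. Mir126a is the third from the top, and Mir221 and Mir222 lie in the lower part at places 23 and 26.

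Markers of other cell types of the organ were read in the same libraries. These lists share Mir200b of epithelium and Mir155 of leukocytes with the vessel list. Their counts of called genes stand beside 15.8% higher and 17.8% lower over all genes tested with TMM, and 33.4% higher and 9.01% lower with library totals. For smooth muscle and pericytes, 2 of 2 genes were higher in replicate 2 by the exact binomial test, with TMM and with library totals, and their sum was 25617 CPM in replicate 1 and 36005 CPM in replicate 2. Mir126a stood 2.08-fold above Mir143, the main smooth muscle gene, in replicate 1 and 1.45-fold above it in replicate 2. The pair summed stood near Mir145a, at 1.06 and 0.805 times its level, but far below Mir143, at 0.0152 and 0.0125 times that level. Mir126a stood 146-fold and 93.5-fold above Mir145a. For epithelium, 4 of 5 genes were lower with TMM, but 2 were higher and 0 lower with library totals. The epithelial sums were 26285 and 26770 CPM, led by Mir429 at 15328 and 15749 CPM. Mir126a was 2.00 and 1.93 times the epithelial sum, and the pair summed was 0.0146 and 0.0166 times it.

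Blood cells can also hold miR-221 and miR-222. Of the leukocyte genes, 2 of 4 tested were higher in replicate 2 with TMM and 4 with library totals, with sums of 2918 and 3916 CPM, led by Mir342 at 2352 and 3252 CPM. In this list Mir142b was at 0 on its own strand and Mir142 has no row. The leukocyte sums therefore hold no reads of Mir142, whose level was not examined here. Of the erythroid genes, 2 of 3 were higher under both scalings, with sums of 313 and 434 CPM, led by Mir451a at 232 and 316 CPM. Mir486b of this list has no row. With a BCV of 0.2, no gene of these marker lists was called. The part of these cell types in the levels of Mir126a, Mir221 and Mir222 was not tested.

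All 15 genes of the kidney list were detected, led by Mir10a, which like Mir10b is also in the vessel list. Of these 15 genes, 9 share 18 nt with another microRNA gene. Among markers of other organs that share no such stretch, Mir206 of striated muscle was at 267 and 287 CPM, and Mir122 of liver at 210 and 171 CPM. The 3 brain Mir124a genes and Mir1a-1, Mir133a-1 and Mir133a-2 of striated muscle were at or near 0, but each shares 18 nt with another gene. Multimapping reads are assigned to none of the genes, so these low counts do not show that the microRNAs were absent.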

How the data were processed

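The data are raw counts of reads per microRNA gene for 2 libraries. Per the deposited text files, the authors made the counts from alignments to mm10 with genome annotation M4. The aligner and counting program were not stated in the sources used here. Per the labels, RNA under 30 nt was sequenced. Of 3 count columns, the first equals the sum of the others in all 1973 gene rows, and the second, taken as the gene's strand, was used. Rows that name no gene held 55.2% and 51.5% of reads, among them 28.0% and 25.3% mapping to several places. They were left out. Symbols came from GENCODE M21 (1894 rows matched, 79 did not and held 3 reads).

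CPM, exact intervals and binomial tests were computed in Python 3.11.15 with scipy 1.17.1, and TMM factors (0.952 and 1.05) in edgeR 4.0.16. DESeq2 1.42.0 size factors, library totals, no filter, either-strand reads and an edgeR exact test (BCV 0.2) were alternatives. With 1 library a side the quasi-likelihood test has no residual degrees of freedom. The binomial test was tested on simulated data that held counting error alone. That run cannot show how the test behaves when pools also differ in other ways. The precision of a level is set by its reads, and 3 reads equal 0.564 and 0.421 CPM.

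The genes, lists and tests were chosen with earlier results of these data known. Named are the 3 genes, genes that share their seed or lie within 10 kb, and the 3 nearest in level. Of the vessel list, the 8 highest other genes and the 2 highest and 2 lowest called ratios at 100 CPM or more are named, with the highest gene of each marker list. Mir92-1, Mir145a, Mir24-1, Mir155, Mir200b and marker genes at 0, without a row or named for their list were added after values were seen.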

Additional observations from a re-analysis of the deposited data

Results flagged for a closer look

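Opposite-strand reads at Mir126a lie outside the sense counts used for the levels. The row held 10 of them in replicate 1 and 27 in replicate 2, both above the 3 reads that a count of 0 allows. The files do not say whether they come from Mir126b, which lies on that strand. There were no control samples to compare with.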

How the results depend on the processing

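Of 48 alternative values, 38 stayed on their side of the threshold, within the replicate SD or, for counts of genes, within 1.5 times the main count. Some of these could not have moved. With 2 libraries, a value with 1 left out always lies within the SD of both. Without opposite-strand reads, the either-strand ratio of Mir221 to Mir222 equals the main one, and dropping the filter leaves each gene's ratio unchanged. The log2 ratios of the 3 genes kept their sign, but that of Mir222 between the libraries was 0.000713 with DESeq2 size factors. Levels are positive under any setting. The counts of called genes held in size but turned in direction with library totals, from 72 higher and 81 lower to 152 and 41 over all genes. In the vessel list they went from 8 and 14 to 17 and 8, with the median from -0.02 to 0.12. Counting reads on either strand put Mir126a at 50955 CPM, because the total grows. Dividing by all reads, unassigned ones included, put Mir126a at 24277, Mir221 at 125 and Mir222 at 68.5 per 1000000. Per base of the annotated gene, the log2 ratio of Mir221 to Mir222 was 0.60 and that of Mir126a to the pair 7.26. With library totals, Mir221 passed the exact binomial test at 0.24. In the edgeR exact test with a BCV of 0.2, Mir126a, at -0.17, no longer passed (adjusted p = 1), 3 genes differed between the libraries against 153, and 0 of the vessel list were called against 22. By an unadjusted p under 0.05 the BCV test called 18 genes. Leaving out 1 library put Mir126a between 51554 and 52632 CPM, Mir221 between 244 and 289, Mir222 between 139 and 154, the log2 ratio of Mir221 to Mir222 between 0.82 and 0.90 and that of Mir126a to the pair between 6.86 and 7.10. The opposite-strand share of the 3 genes, 0.00542% on average, lay between 0.00355% and 0.00728%. A difference between libraries cannot be tested with 1 library left out. No paired analysis was possible because the series holds 1 group. At this depth counting error alone leaves the ratio of Mir222 between the libraries, with TMM, within -0.12 to 0.15 log2. With library totals the ratio was 0.16, outside that interval.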
